A study of Mus musculus with 19 samples.

Results

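The genes described here are 33 markers of the diencephalon, the part of the forebrain that lies beneath the cerebral cortex, measured in tissue dissected as fetal mouse cortex. They comprise 21 markers of the hypothalamus and 12 of the thalamus, prethalamus and zona limitans. Members were taken by gene symbol from the deposited annotation, which gave 47 of the 45101 probe sets on the array. Their signals were read array by array as a gauge of non-cortical tissue in the dissections. A gene value, the brightest probe set that names a single gene, could be had for 32 of the 33 members among 17953 genes in all. The exception was Irx2, whose probe set carries a second symbol and is given by itself below.

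RNA came from part of the cortex of individual wild-type C57BL/6 fetuses, described as female, on gestational day 16, with 1 array per fetus and 19 arrays in all. The dams drank from gestational day 13 and received 1 injection 12 hours before they were killed. Control dams (5 arrays) had water with 2% sucrose and an injection of saline. Hypo dams (5 arrays) had the same sucrose water with 1% perchlorate and 0.025% methimazole, drugs that block thyroid hormone production, and saline. Hypo_plus dams (5 arrays) had the water of the hypo group and 25 µg of thyroxine (T4) with 2.5 µg of triiodothyronine (T3) per 100 g body weight. Hyper dams (4 arrays) drank the control water and were given T4 at 100 µg and T3 at 10 µg per 100 g body weight. Some labels name the goitrogen as propylthiouracil instead. The study asked how the fetal cortex responds to thyroid hormone with and without such pretreatment, and it left out 1 of 20 samples for quality. It is not stated whether any of the fetuses were littermates, and the p-values below rest on the spread among the fetuses measured, which may be smaller than that among dams.

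The thalamus relays sensory signals to the cortex, and the hypothalamus controls hormone release, feeding, sleep and body temperature. Their neurons are specified by homeodomain and other transcription factors that are laid down in domains before birth. Hypothalamic neurons then make peptides, such as oxytocin, vasopressin and melanin-concentrating hormone, that the fetal cortex is not known for. Some members are also made outside the diencephalon, for example Lhx5 in early-born marginal neurons of the cortex. In bulk tissue, fewer cells of a type and less RNA per cell cannot be told apart.

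Markers of the cortex were read as a check of the tissue. Summed over 15 genes of dorsal cortex, the signal ran from 16676.7 to 29763.4 between arrays, with a mean log2 deviation from −0.44 on hypo_plus 5 to 0.42 on hypo 5. Of these genes, Bcl11b, a transcription factor of deep-layer cortical neurons, read from 3076.7 to 5354.6 signal units, and Neurod2, a factor of cortical excitatory neurons, from 1416 to 2936.1. The unit is probe set intensity, linear and already normalized by the authors, with array medians between 73.1 and 106. Their number, 19 arrays, limits the precision. On hypo_plus 1 and hyper 4 the Y-linked gene Ddx3y read 695.9 and 546.7, against at most 11.3 elsewhere, which goes against the description as female. The main group differences and correlations are given for all arrays and also for the 17 that remain without these.

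Many member probe sets, above all of hypothalamic peptides and factors, stayed near the low end of the scale. The authors called 29 of the 47 member probe sets present. The gene-value probe set was among these for 13 of 21 hypothalamus members and 8 of the 11 measured thalamus members, against 72.9% of all genes. For 11 members, 9 of them hypothalamic, no array reached 100 signal units. Levels of different probe sets depend on the probes and were not compared between genes.

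**Figure D1:**
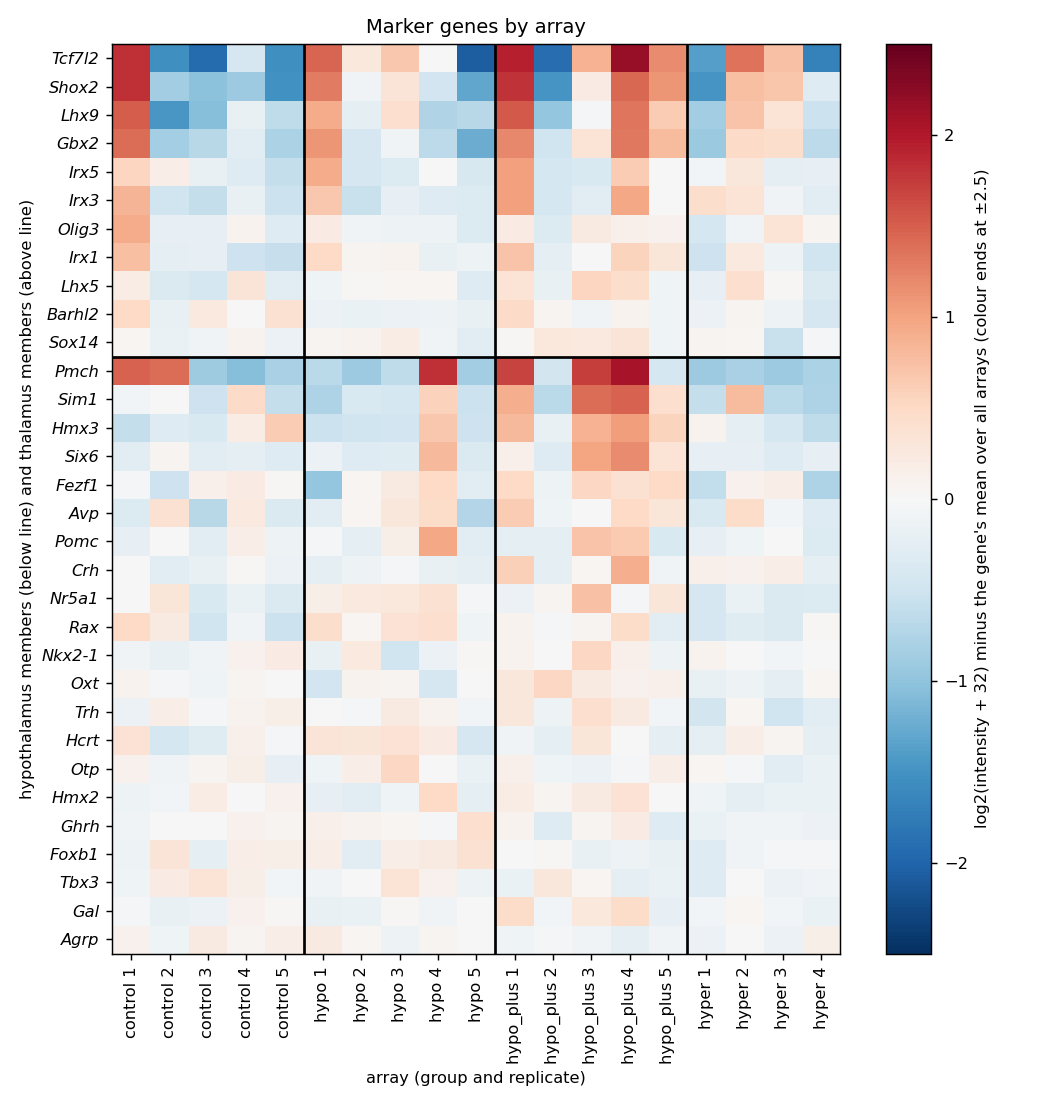
Each column is an array, grouped as control, hypo, hypo_plus and hyper, and each row a member, with thalamus members above the black line and hypothalamus members below it. Colour gives log2(intensity + 32) minus the gene's mean over the 19 arrays. Tcf7l2, Shox2, Lhx9 and Gbx2 were high on the same arrays, led by control 1, hypo 1, hypo_plus 1 and hypo_plus 4. Pmch and Sim1 were also high on hypo_plus 1 and hypo_plus 4, but on hypo 4 and not on hypo 1. Of this pair only Pmch was high on control 1.

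The main thalamic transcription factors, Tcf7l2, Shox2, Gbx2 and Lhx9, varied widely between individual fetuses, and every group held low and high arrays. The highest array was 9.4 times the lowest for Lhx9, 10.9 times for Gbx2 and 34.3 times for Tcf7l2. Tcf7l2, a transcription factor that mediates Wnt signals and is needed for thalamic and habenular neurons, read 999.7, 68.2, 44.7, 185.6 and 68.8 on control arrays 1 to 5 and 758.1, 315.4, 429.7, 255.1 and 37.2 on hypo arrays 1 to 5. On hypo_plus arrays 1 to 5 it read 1080.0, 45.4, 496.4, 1275.3 and 622.0, and on hyper arrays 1 to 4 it read 80.1, 709.4, 447.5 and 57.9. The lowest array of each group thus read under 100 and its highest between 709.4 and 1275.3, and the 4 groups overlapped. Hypo_plus 4 was the highest array and hypo 5 the lowest.

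Lhx9, a LIM-homeodomain factor of developing thalamic neurons, was high on many of the same arrays. It read 1403.3, 149.9, 207.8, 410.7 and 289.4 in control, and 923.0, 398.3, 640.6, 265.9 and 276.4 in hypo. In hypo_plus it read 1408.6, 222.9, 455.5, 1234.2 and 742.6, and in hyper 241.1, 789.3, 599.9 and 314.2. Control 1 and hypo_plus 1 were the highest of the series and nearly equal. Control 2 was the lowest.

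Gbx2, a homeodomain factor required for thalamic projection neurons and their axons to the cortex, read 384.5 on control 1 and 56.4 to 99.4 on the other 4 controls. In hypo it read 311.8, 87.2, 117.9, 69.8 and 35.2, in hypo_plus 334.2, 81.1, 170.2, 363.0 and 242.4, and in hyper 52.1, 189.7, 184.1 and 69.6. Hypo 1 stood above the rest of its group as control 1 did in its own. Shox2, a homeodomain factor of thalamic neurons that is also known from heart and limb, read 411.6, 36.7, 29.4, 34.7 and 11.8 in control and 276.4, 85.7, 125.1, 58.4 and 18.8 in hypo. It read 407.8, 12.9, 111.5, 309.1 and 236.5 in hypo_plus and 13.3, 180.1, 170.8 and 67.9 in hyper. The lowest of these, 11.8 to 13.3, lie where Y-linked genes read on arrays without Y signal (8.5 to 14.9), so no fold is given against them. Hypo_plus 2 lay far below the other 4 arrays of its group.

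**Figure D2:**
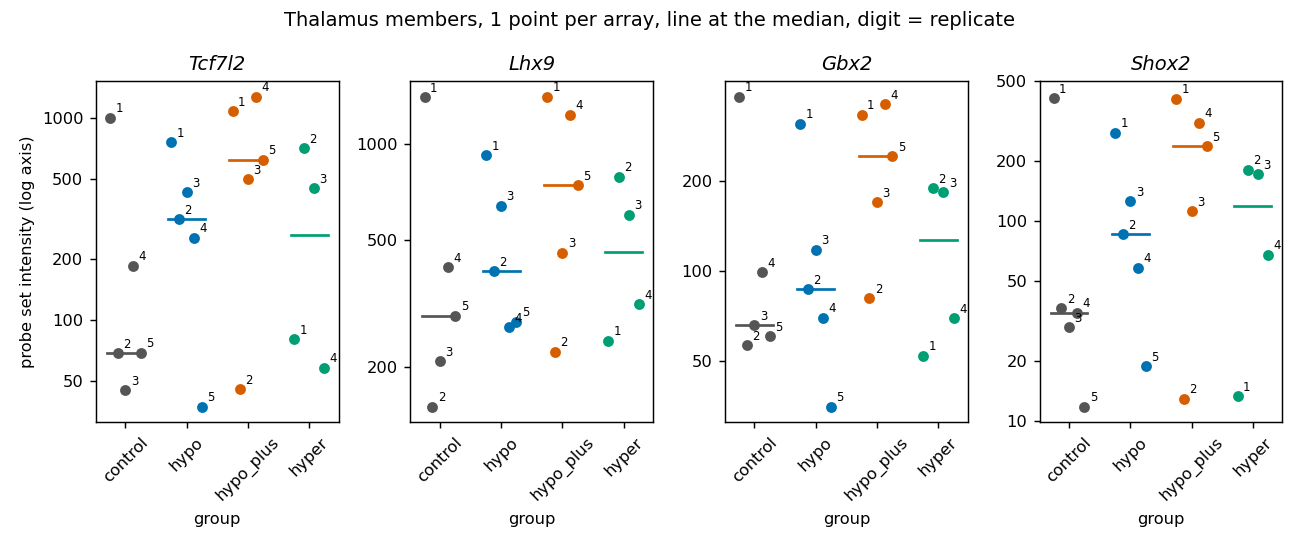
Probe set intensity on a log axis for Tcf7l2, Lhx9, Gbx2 and Shox2, with 1 point per array, the replicate number beside it and a line at each group's median. In all 4 genes every group spans low and high arrays. Control 1 and hypo 1 sit above the rest of their groups and hypo_plus 2 is the lowest of its own.

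The remaining thalamus members varied less. Of the Iroquois factors, homeodomain proteins that pattern the thalamus and midbrain, Irx3 read from 57.5 to 241.0, Irx5 from 14.3 to 109.7 and Irx1 from 49.4 to 172.0. Irx3 read 95.9 ± 66.0 (SD, n = 5) in control, 95.6 ± 50.3 in hypo, 144.9 ± 84.6 in hypo_plus and 115.4 ± 34.0 (n = 4) in hyper. Irx5 read 36.8 ± 21.7, 40.9 ± 34.7, 53.4 ± 39.1 and 36.2 ± 11.8 in the same order, so for both the group means lay within the spread. Irx3 was highest on hypo_plus 1, at 241.0, then hypo_plus 4, at 231.6, control 1, at 212.2, and hypo 1, at 184.1. Irx2, by its ambiguous probe set, read 170.3, 61.4, 61.0, 34.1 and 40.9 in control, 105.7, 43.7, 76.1, 48.3 and 56.9 in hypo, 133.0, 37.7, 36.2, 109.5 and 70.7 in hypo_plus, and 48.6, 88.4, 47.3 and 34.7 in hyper. Its highest arrays were again control 1, hypo_plus 1, hypo_plus 4 and hypo 1.

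Olig3, a bHLH factor of thalamic progenitors, read from 16.6 to 94.2 with control 1 on top. Lhx5, a LIM-homeodomain factor of the prethalamus, hypothalamus and marginal cortex, read from 67.3 to 162.4. Sox14, a factor of inhibitory neurons of the rostral thalamus, read from 54.3 to 125.9, and Barhl2, a homeodomain factor of the zona limitans and thalamus, from 16.6 to 59.9. Barhl2 read 43.3 ± 14.0 (SD, n = 5) in control, 26.7 ± 0.8 in hypo, 38.0 ± 12.3 in hypo_plus and 26.9 ± 8.1 (n = 4) in hyper. Its log2 difference was −0.34 ± 0.12 (SE) for hypo over control and −0.34 ± 0.13 for hyper over control, and neither passed with limma (adjusted p = 0.3696 and 0.5113). At signals this low, a difference of log2(intensity + 32) understates the fold.

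Probe sets of the same thalamic gene gave the same array pattern. The 4 probe sets of Tcf7l2 correlated with each other at 0.96 to 0.99 over the 19 arrays, the 4 of Lhx9 at 0.91 to 0.98 and the 2 of Shox2 at 0.91. Hypothalamic members with several probe sets did not share this, with 0.54 for Pomc, −0.16 for Sim1, −0.19 for Nr5a1 and −0.13 to 0.64 among 5 probe sets of Tbx3. In Sim1, Nr5a1 and Tbx3 the probe sets disagree, so statements on these genes hold for the brightest probe set only.

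The members with the greatest spread were the thalamic factors together with 2 hypothalamic genes, Pmch and Sim1. Within groups, the SD of log2(intensity + 32) of Tcf7l2 was 1.5, which ranked 2 of 17953 genes from the largest. Shox2 ranked 5, Pmch 7, Lhx9 13, Gbx2 17, Sim1 29, Irx3 52 and Irx5 81, so 8 members stood among the top 100. Of the 32 members, 31 had a within-group SD above the median of all genes, which was 0.162. The share of variance that lay between groups had a median of 25.9% over the members and 21.1% over all genes. It was 16% for Tcf7l2 and 12.7% for Lhx9, but 50.2% for Oxt and 45.3% for Hmx3.

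Among the hypothalamic peptides, Pmch, the precursor of melanin-concentrating hormone, fell into arrays that had it and arrays that did not. It read 274.6, 257.5, 27.6, 20.2 and 31 on control arrays 1 to 5 and 36.5, 26.3, 38.6, 355.7 and 28.1 on hypo arrays 1 to 5. In hypo_plus it read 324.0, 48.4, 330.9, 427.0 and 48.8, and in hyper 26.2, 30.5, 26.5 and 31.2. Thus 6 arrays read over 250 and the other 13 under 50, and the 6 were 2 controls, 1 hypo and 3 hypo_plus. The log2 difference of hypo_plus over hyper was 1.78 ± 0.67 (SE), with 5 of 5 hypo_plus arrays above all 4 hyper arrays, and it did not pass with limma (adjusted p = 0.2997). Without hypo_plus 1 and hyper 4 it was 1.60 ± 0.80 (adjusted p = 0.41).

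Oxt, the oxytocin precursor, had the smallest p of any member. It read 331.3, 298.8, 287.9, 326.3 and 312.2 in control and 213.7, 332.0, 327.1, 224.1 and 312.8 in hypo. In hypo_plus it read 383.9, 461.6, 371.0, 338.0 and 342.7, and in hyper 272.1, 282.4, 263.1 and 322.3. All 5 hypo_plus arrays lay above every array of the other groups, by as little as 338.0 against 332.0. The log2 difference was 0.40 ± 0.11 (SE) over hypo, with limma's adjusted p = 0.0703, and 0.37 ± 0.12 over hyper, with adjusted p = 0.2242. When the arrays with Y-linked signal were left out the first was 0.40 with adjusted p = 0.118.

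Trh, the precursor of thyrotropin-releasing hormone, is known in the hypothalamus as a gene that thyroid hormone represses. It read 65.5, 89.6, 72.8, 83.3 and 88.0 in control and 77.0, 73, 94.9, 83.3 and 71.0 in hypo. In hypo_plus it read 99.2, 67.6, 112.3, 94.3 and 70.7, and in hyper 46.7, 79.5, 44.5 and 57.9. Of the 4 hyper arrays 3 lay below all arrays of the other groups, while hyper 2 lay within the other groups. The log2 difference was −0.34 ± 0.12 (SE) for hyper over control and 0.44 ± 0.12 for hypo_plus over hyper, and neither passed with limma (adjusted p = 0.4655 and 0.1825). On the 17 arrays they were −0.35 (adjusted p = 0.596) and 0.42 (adjusted p = 0.259).

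The promoters of these peptide genes are shown because of their p among the members. Oxt had the smallest p in hypo_plus against hypo, and Trh in hyper against control and in hypo_plus against hyper. In hypo_plus against control, which also differ in injected hormone, Six6 had the smallest. They are RefSeq sequences of GRCm38.p6, from 250 bases before to 50 bases after the start. Capitals mark AGGTCA, the 6-base sequence that nuclear receptors of the thyroid hormone receptor class bind, or its reverse complement TGACCT.
Oxt promoter, chr2:130575919-130576218, plus strand: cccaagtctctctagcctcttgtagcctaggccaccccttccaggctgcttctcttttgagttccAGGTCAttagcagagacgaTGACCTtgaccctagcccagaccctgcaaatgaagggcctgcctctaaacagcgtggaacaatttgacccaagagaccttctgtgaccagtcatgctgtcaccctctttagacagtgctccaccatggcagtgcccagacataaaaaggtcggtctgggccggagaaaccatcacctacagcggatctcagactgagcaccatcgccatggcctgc
Trh promoter, chr6:92244601-92244900, minus strand: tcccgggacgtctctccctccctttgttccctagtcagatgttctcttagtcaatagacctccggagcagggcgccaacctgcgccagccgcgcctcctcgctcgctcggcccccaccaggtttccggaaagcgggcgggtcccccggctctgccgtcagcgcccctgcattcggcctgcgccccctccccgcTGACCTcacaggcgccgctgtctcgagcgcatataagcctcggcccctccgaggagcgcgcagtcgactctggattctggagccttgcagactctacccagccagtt
In Oxt the matches began 185 bases before the start on the gene's strand and 166 bases before it on the other strand. In Trh 1 match began 57 bases before the start, on the other strand. Promoters were matched for 24 of the 33 members, 27 promoters in all, and 7 of the 27 (25.9%) held AGGTCA on either strand, against 16.3% of all 32851 promoters of that length. The 7 belonged to Ghrh, Hmx2, Nkx2-1, Oxt, Pomc and Trh. In hypo against control Barhl2 had the smallest p of the members. The promoters of Barhl2 and Six6 are not shown, and they held no match. These matches describe letters in a window and say nothing of binding.

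Pomc, the precursor of melanocortins and beta-endorphin, read from 127.7 to 374.5, and its highest arrays were hypo 4, at 374.5, hypo_plus 3, at 312.3, and hypo_plus 4, at 295.0. No other array exceeded 201.5. Its means were 165.5 ± 23.5 (SD, n = 5) in control, 206.5 ± 96.6 in hypo, 205.4 ± 90.2 in hypo_plus and 155.8 ± 18.9 (n = 4) in hyper. Hcrt, the orexin precursor, read 122.5 ± 34.9 (SD, n = 5) in control, 146.2 ± 34.9 in hypo, 121.5 ± 25.0 in hypo_plus and 120.8 ± 21 (n = 4) in hyper, so its group means lay within the spread. Avp, the vasopressin precursor, read from 50 to 179.6 and Gal, the galanin precursor, from 67.2 to 125.2. For Gal the 3 highest arrays were hypo_plus 4, at 125.2, hypo_plus 1, at 125.0, and hypo_plus 3, at 105.1.

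For the remaining peptides most signals were low. Crh, the stress hormone that drives corticotropin release, read 70.5 on hypo_plus 4, 51.4 on hypo_plus 1 and at most 29.4 on the other arrays. Agrp, an appetite-stimulating peptide of the arcuate nucleus, read 34.2 ± 5.6 (SD, n = 5) in control, 31.8 ± 5.6 in hypo, 25.4 ± 2.7 in hypo_plus and 28.4 ± 6.0 (n = 4) in hyper. Ghrh, which drives growth hormone release, read from 20.6 to 56.9. Agrp had a log2 difference of −0.20 ± 0.08 (SE) in hypo_plus over control that did not pass with limma (adjusted p = 0.2331), and the authors called its probe set absent.

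Of the hypothalamic transcription factors, Sim1, Hmx3 and Six6 had the largest ranges over the arrays. Like Pmch, each was high on hypo 4, hypo_plus 3 and hypo_plus 4, but unlike Pmch not on control 1, and Sim1 was also high on hyper 2 and Hmx3 on control 5. Hypo_plus 1 was high as well for Pmch, at 324.0, Sim1, at 115.3, and Hmx3, at 86.3, while Six6 read 32.1 there. Sim1, a factor of the paraventricular nucleus, read 42.8, 46.7, 22.8, 77.1 and 19.6 in control and 14.2, 28.0, 25.5, 85.2 and 21.9 in hypo. In hypo_plus it read 115.3, 17.0, 174.4, 184.8 and 73, and in hyper 20.2, 104.6, 17.5 and 13.9. The 3 highest arrays of the series were hypo_plus arrays, but hypo_plus 2 read among the lowest and the groups overlapped. The log2 difference over hypo was 1.02 ± 0.38 (SE), with limma's adjusted p = 0.1891, and 0.96 on the 17 arrays, with adjusted p = 0.289.

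Hmx3, a homeodomain factor of the hypothalamus and inner ear, read 12.4, 21.9, 19.4, 44.3 and 72 in control and 14.5, 15.7, 16.2, 74.6 and 14.7 in hypo. In hypo_plus it read 86.3, 27.5, 90.7, 107.3 and 66.2, and in hyper 39.2, 24.6, 17.5 and 11.0. Hypo 4 was the one hypo array within the range of hypo_plus, and the other 4 lay below all hypo_plus arrays. The log2 difference over hypo was 0.89 ± 0.27 (SE), and limma's adjusted p = 0.0998 missed the threshold. Without hypo 4 the difference was 1.13 (adjusted p = 0.0241), and without hypo_plus 2 it was 1.09 (adjusted p = 0.0482), so the call turned on either array. On the 17 arrays it was 0.85 (adjusted p = 0.174).

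Six6, a homeodomain factor of the ventral hypothalamus, pituitary and retina, read at most 29.1 in control and 19.2 in hyper. In hypo it read 20.7, 14.8, 15.5, 71.2 and 13.4, and in hypo_plus 32.1, 14.8, 84.4, 101.9 and 42.6. Hypo 4, hypo_plus 3 and hypo_plus 4 were the highest, as for Pomc. Its log2 difference of hypo_plus over control was 0.68 ± 0.24 (SE), with limma's adjusted p = 0.2074, and 0.76 on the 17 arrays, with adjusted p = 0.188. Hmx2, the neighbour and relative of Hmx3, stayed at 16.7 to 51.6, and was again highest on hypo 4 and hypo_plus 4.

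**Figure D3:**
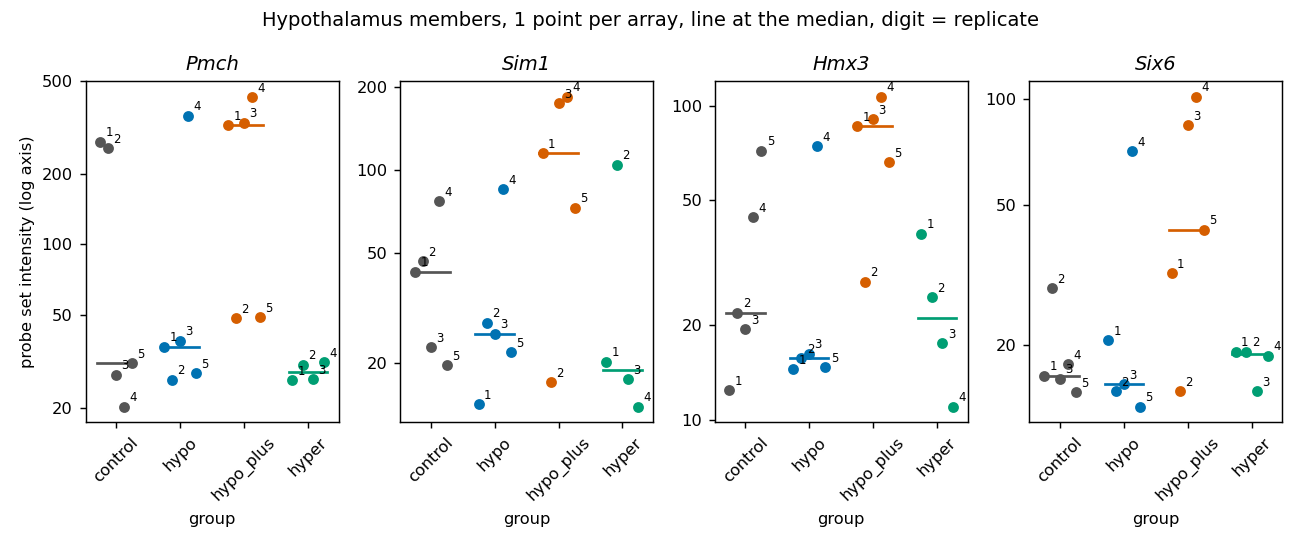
Probe set intensity on a log axis for Pmch, Sim1, Hmx3 and Six6, with 1 point per array, the replicate number beside it and a line at each group's median. Hypo 4 stands above the rest of its group in all 4 genes, and hypo_plus 3 and 4 are near the top in each.

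Factors of broad hypothalamic domains varied less. Nkx2-1, a homeodomain factor needed for the ventral hypothalamus, read 81.1 ± 12.9 (SD, n = 5) in control, 74.1 ± 19.9 in hypo, 92.4 ± 22.6 in hypo_plus and 81.2 ± 5.2 (n = 4) in hyper. Otp, a homeodomain factor of neurosecretory neurons, read 55.6 ± 8.5 (SD, n = 5) in control, 61.4 ± 18.6 in hypo, 55 ± 8.5 in hypo_plus and 49.1 ± 8.5 (n = 4) in hyper. Group means of either gene lay within the spread of its groups. Rax, a homeodomain factor of the early eye field and hypothalamus, was highest on control 1, at 77.6, and read 44.5 ± 24.0 (SD, n = 5) in control, 60.4 ± 15 in hypo, 49.9 ± 15.5 in hypo_plus and 32.9 ± 9.5 (n = 4) in hyper. Its log2 difference of hypo over control was 0.31 ± 0.18 (SE; limma's adjusted p = 0.6162).

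Fezf1, a zinc finger factor of the ventromedial hypothalamus, read from 58.2 to 222.3, and 4 of the 5 hypo_plus arrays lay between 197.8 and 222.3. Nr5a1, the nuclear receptor that specifies the ventromedial nucleus, was called absent and read 39.9 ± 14.8 (SD, n = 5) in control, 56.8 ± 9.6 in hypo, 57.7 ± 23.5 in hypo_plus and 29.8 ± 5.0 (n = 4) in hyper. Its log2 difference of hypo over control was 0.32 ± 0.15 (SE; limma's adjusted p = 0.4923). Tbx3, a T-box factor of the arcuate nucleus, read 42.3 ± 9.7, 39.4 ± 9.9, 35.2 ± 10.4 and 30.7 ± 6.0 in the same groups, and hyper over control was −0.24 ± 0.12 (limma's adjusted p = 0.6504). Foxb1, a forkhead factor of the mammillary bodies, read from 25.0 to 60.5 and was highest on hypo 5. By the authors' deposited table, Nr5a1 had a fold of 1.9 in hypo over hyper with an adjusted permutation p-value of 0.0383 on the probe set used here, a comparison in which 2.15% of all probe sets were under 0.05, and its other probe set had 0.9882.

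Thalamus members moved together across arrays, hypothalamus members less so. Over the 55 pairs of thalamus members with a gene value the median correlation of log2 values across the 19 arrays was 0.66, and 0.62 after group means were removed. Of these pairs 13 exceeded 0.8. Over the 210 hypothalamus pairs the median was 0.22, or 0.19 within groups, and over the 231 pairs across the regions it was 0.22, or 0.13 within groups. All genes of an array share its RNA and its normalization, so these are descriptions. Of the 11 members that stayed under 100 signal units on every array, 9 are hypothalamic. What part their low signal has in the lower correlations of hypothalamus members was not tested.

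Tcf7l2 was set against 162 genes of the members and of companion lists, with permutation p-values from 100000 permutations of the arrays and Benjamini-Hochberg adjustment over the 162. With Shox2, Pearson's r was 0.94 and Spearman's rho 0.90, with Gbx2 0.93 and 0.92, and with Lhx9 0.92 and 0.91. Each of these had a permutation p of 1e-05, the smallest that the permutations can give, and adjusted p-values of 0.000231 for r and 0.000324 for rho. Without control 3 and hypo 5, the arrays farthest from the median of Tcf7l2, r was 0.93, 0.92 and 0.92. Within groups it was 0.93, 0.94 and 0.91, and without the arrays with Y-linked signal 0.95, 0.92 and 0.92. Of the 10 other thalamus members, 8 correlated with Tcf7l2 at an adjusted p under 0.05, all positively, and Barhl2 (r = 0.28, permutation p = 0.247) and Sox14 (r = 0.27, permutation p = 0.278) did not. No share over all genes stands beside this count or the counts of correlations below.

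Thalamic genes outside the member list ran with Tcf7l2 as well. Rora, an orphan nuclear receptor of sensory thalamus, read from 67.6 on hypo_plus 2 to 354.7 on hypo_plus 5, and its r with Tcf7l2 was 0.95 (rho 0.93, permutation p = 1e-05, adjusted p = 0.000231, 0.95 without the 2 arrays and 0.95 within groups). Prox1, a homeodomain factor of thalamus and dentate gyrus, had r = 0.93 (rho 0.91, permutation p = 1e-05, adjusted p = 0.000231, 0.94 without the 2 arrays). Of 23 further genes of thalamus and diencephalon, 13 passed, all positively. So did 3 of 21 further hypothalamus genes, 2 of 11 of cortical hem and hippocampus, 2 of 8 of eye and retina, 1 of 12 of choroid plexus and 1 of 19 of midbrain and hindbrain, some of which stand in several lists, and none of ventral telencephalon and striatum or pituitary. Among 15 genes of dorsal cortex 1 passed, Bcl11b, and it was negative, with r = −0.63 and rho = −0.60 (permutation p = 0.00422, adjusted p = 0.0285, r = −0.68 without the 2 arrays and −0.79 within groups). Of the 21 hypothalamus members 3 passed for r: Hcrt at 0.65, Crh at 0.62 and Sim1 at 0.59, with adjusted permutation p-values of 0.0244, 0.00769 and 0.0482. Without the 2 arrays r was 0.55, 0.59 and 0.55, and Sim1 did not pass for rho (0.53, permutation p = 0.0208, adjusted p = 0.106). Without the arrays with Y-linked signal Rora (0.94), Prox1 (0.91) and Hcrt (0.71) still passed, while Bcl11b (−0.62), Crh (0.55) and Sim1 (0.52) did not, with adjusted p = 0.0572, 0.0504 and 0.149. On these 17 arrays 7 of the 10 thalamus members and 1 of the 21 hypothalamus members passed.

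Sim1 was set against 162 genes in the same way. With Six6, r was 0.81 and rho 0.64 (permutation p = 8e-05 for r, adjusted p = 0.00259), and with Hmx3 0.75 and 0.66 (permutation p = 0.00042 for r, adjusted p = 0.0085), but neither rho passed after adjustment, at 0.0667 and 0.0574. Without hypo_plus 3 and hypo_plus 4, the arrays farthest from the median of Sim1, r was 0.61 and 0.59, and within groups 0.73 and 0.59. Of the 20 other hypothalamus members 9 passed for r, Pmch included, and of the 11 thalamus members 1 did, Lhx5 (r = 0.81, rho 0.72, permutation p = 8e-05, adjusted p = 0.00259, 0.70 without the 2 arrays). Dlk1, a membrane protein of hypothalamic neurons, had r = 0.85 (rho 0.75, permutation p = 1e-05, adjusted p = 0.00108, 0.72 without the 2 arrays), and it read 1309.5 on hypo 4, 1473.6 on hypo_plus 3 and 1412.4 on hypo_plus 4 against a median of 599.5. Of the further lists, 5 of 21 hypothalamus genes and 5 of 23 thalamus and diencephalon genes passed positively, with 2 of cortical hem and hippocampus and 1 of ventral telencephalon, and 1 of dorsal cortex and 2 of eye and retina passed negatively. Without the arrays with Y-linked signal r was 0.83 for Six6, 0.70 for Hmx3, 0.78 for Lhx5 and 0.83 for Dlk1. For r each had an adjusted permutation p under 0.05, but for rho none did, at 0.102, 0.304, 0.102 and 0.102. Only 3 of the 20 hypothalamus members and 1 of the 11 thalamus members passed for r there. Pmch is counted among the 9 above, but its arrays fell into separate clusters, so its r would describe the clusters and is not printed. Without the arrays with Y-linked signal Pmch did not pass for r (adjusted permutation p = 0.0584).

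A score per region, the mean over its members of each array's log2 deviation from the gene's mean, placed the arrays on both patterns. The thalamus score, over 11 members, ran from −0.59 to 0.94 in control, from −0.66 to 0.63 in hypo, from −0.56 to 0.94 in hypo_plus and from −0.50 to 0.42 in hyper. The summed intensity of these 11 members ran from 695.7 to 4027.1, 737 to 2958.9, 785.1 to 4087.4 and 853.3 to 2484.2 in the same order. All 4 groups therefore overlapped over most of their range. The hypothalamus score, over 21 members, had medians of 0.02 in control, −0.09 in hypo, 0.29 in hypo_plus and −0.235 in hyper, with summed intensities of 1364.4 to 1795.8, 1355.9 to 2360.7, 1597.5 to 2656.7 and 1257.7 to 1628.7. Hypo 4 had a hypothalamus score of 0.33 and a thalamus score of −0.24, whereas control 1 had 0.02 and 0.94, and hypo 1 had −0.16 and 0.63. With hypo_plus 1 and hyper 4 set aside, the highest thalamus score of hypo_plus was 0.85 and the lowest of hyper stayed at −0.50.

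**Figure D4:**
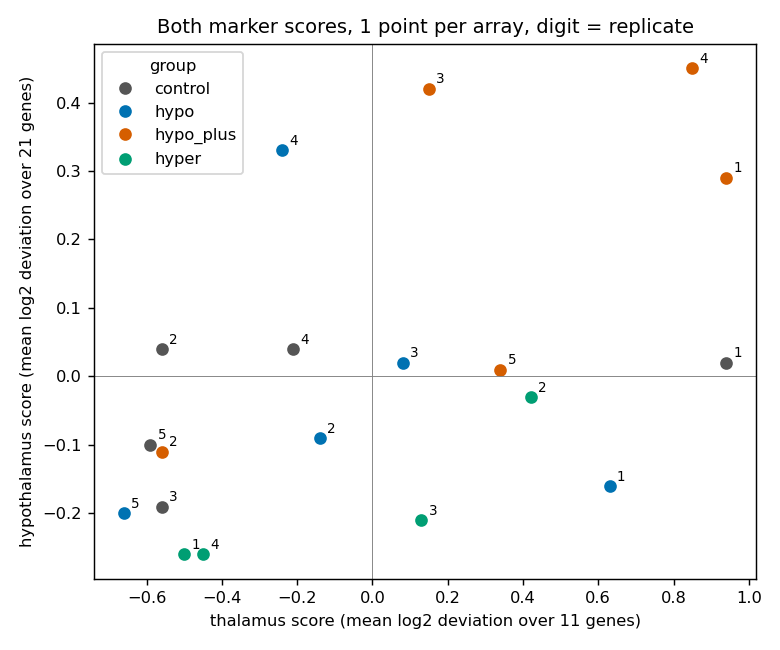
Thalamus score (x axis) against hypothalamus score (y axis), both as mean log2 deviations, with 1 point per array coloured by group and numbered by replicate. Hypo_plus 1, 3 and 4 have the highest hypothalamus scores but for hypo 4, and their thalamus scores are 0.94, 0.15 and 0.85. Control 1 and hypo 1 are high on the thalamus axis and near or below 0 on the other, and hypo 4 is the reverse.

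High values gathered on few arrays. Of the 32 members, 8 had their highest value on hypo_plus 4, 7 on control 1, 5 on hypo_plus 3 and 4 on hypo_plus 1. Hypo_plus 4 was among the 3 highest arrays for 20 members, and hypo_plus 1 and hypo_plus 3 for 15 each. No hyper array was the highest for any member.

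Against this spread, no member passed the threshold (limma's adjusted p under 0.05 over 17953 genes) in any comparison of groups. In hypo against control, which asks what goitrogen alone does, 0 of 32 members and 0% of all genes passed, and 2 members and 9.88% of all genes had an unadjusted p under 0.05. In hypo_plus against control 0 members and 0.551% of genes passed, with 6 members and 13.8% of genes at the unadjusted level. In hyper against control 0 members and 0.0446% of genes passed, with 2 members and 8.03% of genes at the unadjusted level. In the authors' deposited table no member probe set was under 0.05 in these 3 comparisons, where 0.111%, 4.27% and 0.551% of probe sets were.

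In hypo_plus against hypo, hormone given under goitrogen, 0 members passed against 1.58% of genes, and 6 members against 15.4% of genes stood below 0.05 without adjustment. The authors' deposited table had Hmx3 (fold 3.28, adjusted permutation p-value 0.0189) and Oxt (fold 1.36, 0.0306) under 0.05 here, 2 of 47 member probe sets where 4.84% of all probe sets were. In hypo_plus against hyper 0 members and 0.0501% of genes passed, with 11 members and 12.3% of genes at the unadjusted level, and no member probe set in the authors' deposited table against 0.109% of all. For the difference between the hormone response under goitrogen and that without it, 0 members and 0.0111% of genes passed, with 7 members and 7.79% at the unadjusted level. In a limma fit of all 45037 probe sets, which includes that of Irx2, no member passed either, where 0%, 3.11%, 0.175%, 3.16%, 0.0377% and 0.0133% of probe sets did in the 6 comparisons in the order above.

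**Figure D5:**
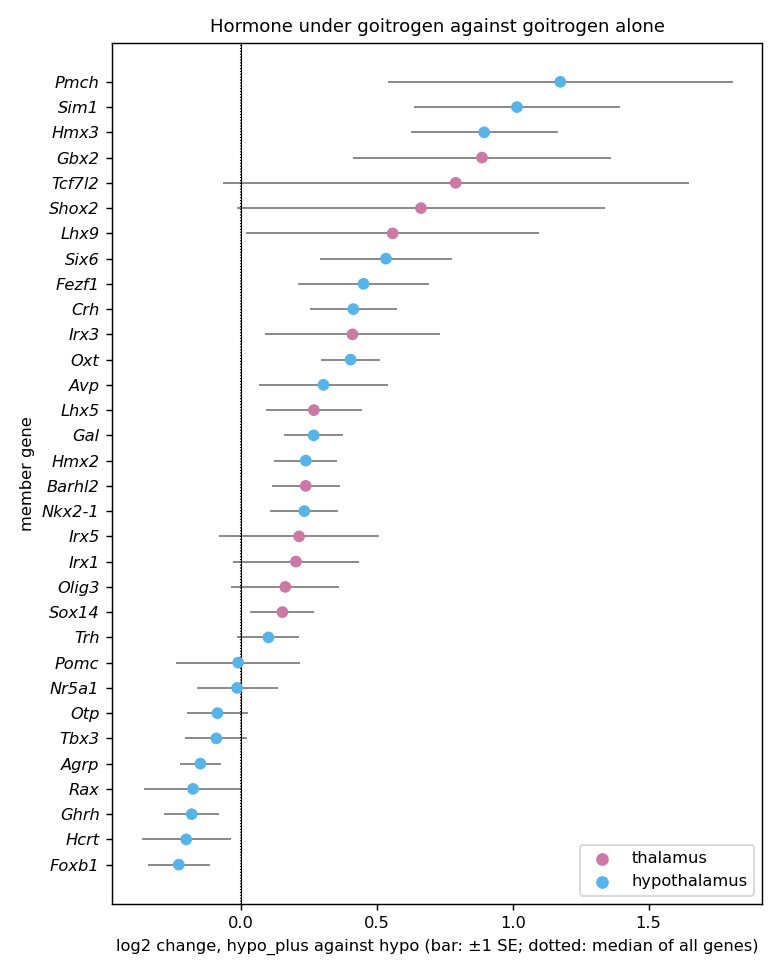
Log2 change of hypo_plus against hypo for the 32 members, with a bar of 1 SE to either side and a dotted line at the median of all genes, −0.01. Of the 32 members, 23 lie above 0, and none passed the threshold.

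In these fits the members' differences had a median of 0.25 in hypo_plus against control, where 26 of 32 were positive, 0.24 against hypo, where 23 were, and 0.30 against hyper, where 31 were. Over all genes the medians were −0.02, −0.01 and −0.04. The comparisons share the hypo_plus arrays. For hypo against control the members' median was 0.04 and for hyper against control −0.08, against −0.02 and 0.01 over all genes. Thalamus members had medians of 0.43, 0.27 and 0.27 in hypo_plus against control, hypo and hyper, and hypothalamus members 0.19, 0.23 and 0.33. With the arrays of Y-linked signal left out, of which hypo_plus 1 was high for thalamus members, these were 0.29, 0.22 and 0.18 for the thalamus and 0.16, 0.20 and 0.29 for the hypothalamus, and no member passed. Single arrays also moved these medians. The thalamus median against control was 0.65 without control 1 and 0.28 without hypo_plus 4, and against hypo 0.46 without hypo 1. The hypothalamus median against hypo was 0.15 without hypo 3, 0.13 without hypo 5 and 0.13 without hypo_plus 3.

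Groups did not overlap for few members. In hypo_plus against control this held for Oxt, 1 of 32 members against 3.13% of all genes. In hypo_plus against hypo it held for Oxt and Barhl2, against 3.79% of all genes, and in hypo_plus against hyper for Oxt, Nr5a1, Hmx2 and Pmch, against 5.84%. In all of these hypo_plus was the higher group. The authors called the probe sets of Barhl2, Nr5a1 and Hmx2 absent and those of Oxt and Pmch present. For Barhl2 the lowest hypo_plus array read 28.2 and the highest hypo array 27.6. No member had separate groups in hypo against control (1.66% of genes) or hyper against control (2.87%).

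Markers of other regions were read beside these in the 3 comparisons of hypo_plus, in which the members' medians were positive. In hypo_plus against hypo, of 21 measured further hypothalamus genes none passed (median 0.14), and of 23 further thalamus and diencephalon genes none (median 0.26). Of 17 genes of ventral telencephalon and striatum, the region below the cortex within the same hemisphere, Dlx2 rose by 0.76, Six3 by 0.54 and Ebf1 by 0.40 (limma's adjusted p = 0.0158, 0.0295 and 0.0454, median of the list 0.40). Of 15 dorsal cortex genes, Fezf2, a factor of subcortically projecting neurons, fell by 0.80 (adjusted p = 0.0356) and Cux2, an upper-layer factor, rose by 0.42 (adjusted p = 0.0460, median of the list −0.35). Summed levels of the dorsal cortex list ran from 16676.7 to 29763.4 in hypo and from 17212.9 to 23469 in hypo_plus, and of the ventral list from 7949.3 to 13451 and from 12790.7 to 17070.8. None passed among genes of midbrain and hindbrain (median −0.04), pituitary (−0.04), eye and retina (−0.10), choroid plexus (−0.07) or cortical hem and hippocampus (−0.12). In hypo_plus against control no gene of any companion list passed, and the medians were 0.37 for choroid plexus (10 of 12 positive), 0.33 for further thalamus and diencephalon, 0.16 for cortical hem and hippocampus, 0.15 for ventral telencephalon, 0.13 for further hypothalamus and −0.26 for dorsal cortex (2 of 15 positive), with the others between −0.02 and 0.02. In hypo_plus against hyper none passed either, and the medians were 0.22 for ventral telencephalon, 0.19 for further thalamus and diencephalon, 0.12 for further hypothalamus and −0.35 for dorsal cortex (0 of 15 positive), with the others between 0.02 and 0.05. What part the diencephalic signal or these other regions have in any group difference of the series was not tested.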

How the data were processed

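The intensity values analysed were probe set intensities that the authors had summarised and normalized before they were deposited. The submitters' processing notes name RMA and MAS5, without versions, and do not say which gave the values. The labels name a rat array, but the deposited probe sets and symbols are those of mouse. Per the file headers, a further deposited table gives permutation p-values, adjusted, and a fold change as a score that is negative where the level was lower.

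A gene's value was its brightest single-gene probe set. Values were taken as log2(value + 32), which understates changes at low signal, and 1 fit over 19 arrays and 17953 genes was made with limma 3.58.1 (lmFit, eBayes; R 4.3.3), with Benjamini-Hochberg adjustment, a two-sided test and an adjusted p under 0.05 as the threshold. Correlations were computed in Python 3.11.15 with numpy 2.4.6 and pandas 2.3.3. The members, companion lists and tests were chosen with earlier results of these data known. Members given array by array or by group means were those with the 10 largest ranges, the 3 smallest p in each comparison, and 8 defining markers. No 2 arrays were identical (r from 0.9796 to 0.9944). The labels give no batch. The fit was tested on simulated data. Correlations without the arrays with Y-linked signal were added after the data were seen. The alternatives changed the probe set rule, normalization, pseudocount, filter, prior, weights and arrays used.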

Additional observations from a re-analysis of the deposited data

Results flagged for a closer look

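A sample far from the rest of its group was found 17 times among 128 groups of 4 or 5 arrays tested with Dixon's ratio at its 95% critical value, in 13 of 32 members. Chance flags about 1 in 20 groups, and members that share arrays are not independent.

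Hypo 4 stood above the rest of its group in 5 hypothalamus members: Pmch at 355.7, Sim1 at 85.2, Hmx3 at 74.6, Six6 at 71.2 and Hmx2 at 51.6. The next highest hypo arrays read 38.6, 28.0, 16.2, 20.7 and 23.4. Control 1 stood above the other controls in 4 thalamus members: Shox2 at 411.6, Gbx2 at 384.5, Irx3 at 212.2 and Irx1 at 172.0. Hypo 1 did so for Irx3, at 184.1.

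Hyper 2 was high for Sim1, at 104.6 against at most 20.2 in its group, and control 2 for Six6, at 29.1. The low arrays were hypo_plus 2 for Fezf1, at 130.9, and for Olig3, at 20.1, hypo 5 for Hcrt, at 85.0, hyper 3 for Six6, at 14.8, and hyper 4 for Crh, at 15.1.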

How the results depend on the processing

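Results were recomputed under 34 alternatives, 19 of which left out 1 array, or fewer (32 or 33) for members that a filter or probe set rule left out. The number of members past the threshold remained 0 in all of them for hypo against control, hypo_plus against control, hyper against control and hypo_plus against hyper. In hypo_plus against hypo it ranged from 0 to 2 when 1 array was left out: it was 2 (Hmx2 and Hmx3) without hypo 4 and 1 (Hmx3) without hypo_plus 2, and it was 1 (Hmx3, 1.03, adjusted p = 0.0336 with limma) with array weights. For the difference of hormone responses it ranged from 0 to 1, with 1 (Hmx2) without hypo 4. Calls over all 17953 genes also rose without hypo 4, from 283 to 476 in hypo_plus against hypo and from 2 to 25 for the difference. In hypo_plus against hypo, calls over all genes were 438 with quantile normalization but 36 with centring on array medians. Without the arrays with Y-linked signal they were 169. The log2 difference of Hmx3 in hypo_plus against hypo lay between 0.47 and 1.66 over 33 alternatives, with adjusted p from 0.0241 to 0.225, and that of Oxt between 0.29 and 0.46 over 34, with adjusted p from 0.0527 to 0.268. No member named for a small p changed sign. Small medians did: the thalamus median in hyper against control (0.08) ran from −0.07, without hyper 2, to 0.22, and the hypothalamus median in hypo against control (−0.04) from −0.06 to 0.03, without control 2. The thalamus median in hypo_plus against control ran from 0.27 to 0.66 and the hypothalamus median from 0.08 to 0.28. Centring on array medians moved the median of all genes in that comparison to −0.12.

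Same-numbered samples of different groups correlated at −0.364 to 0.434 in their deviations from group means, with values on either side of 0, and for replicate 1 at 0.19 to 0.434 in 5 of 6 pairs. The labels do not say that a number marks a shared litter or day, so no pairing was assumed. With the replicate number as a block, the number of members past the threshold was 0 in all 6 comparisons. Dim signals and 4 or 5 arrays per group limit what was detectable, above all for the 11 members that stayed under 100 units.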

Other observations

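Among 10905 genes with a mean intensity of 100 or more, those whose log2 values over the 19 arrays were most like the thalamus score were Syt13 (r = 0.95), a synaptotagmin of vesicle traffic, Prokr2 (0.92), a prokineticin receptor, Chst1 (0.91), a carbohydrate sulfotransferase, and Rora (0.90), followed by Vav3, Gng8, Dmrtb1 and Clybl at 0.88 to 0.89. Syt13 read from 98.9 on hypo 5 to 1106.5 on control 1. Those most like the hypothalamus score were Ebf3 (0.88), a helix-loop-helix factor of differentiating neurons, Resp18 (0.84), a protein of neuroendocrine cells, Dlk1 and Nova1 (both 0.83), Dach2 (0.82), Lhx1 and Minar2 (both 0.80) and Scn3a (0.78). Resp18 read from 104.6 on hyper 4 to 757.9 on hypo_plus 4. These correlations are descriptions over arrays that share their normalization, and the genes were ranked by them.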
